A study of Mus musculus with 36 samples.

Results

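The transcripts of 5 RNA-binding proteins that shorten the life of cytokine mRNAs, Zfp36, Zfp36l1, Zfp36l2, Zc3h12a and Rc3h1, were followed through 12 groups of mouse dendritic cells. They were taken by symbol from a table of 24127 genes, and all 5 passed the filter on low values (a mean normalized count of at least 10 over all libraries) with 11853 genes in all. The cells were grown from bone marrow of C57BL/6J (WT) or LGP2-/- mice (Dhx58-/-, here KO) with GM-CSF and purified by CD11c, a surface integrin of dendritic cells. Treated cells received 20 ng PAMP RNA by transfection. This RNA is the poly-U/UC tract of hepatitis C virus, which the sensor RIG-I recognises. Mock cells, which the labels also call untreated, served as controls. RNA was collected at 1, 3 and 6 h, with 3 libraries in each combination of genotype, treatment and time, 36 in all. A response is PAMP minus mock of the same genotype and time, so whatever the transfection itself did is part of it.

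Zfp36, Zfp36l1 and Zfp36l2 encode the tristetraprolin (TTP) family, whose paired zinc fingers bind AU-rich elements in 3′ UTRs and bring the CCR4-NOT deadenylase to the mRNA. Zc3h12a encodes Regnase-1, an endonuclease that cuts stem-loops in the mRNAs of interleukins, and Rc3h1 encodes Roquin-1, which binds related stem-loops and also recruits deadenylases. In dendritic cells and macrophages these proteins limit how long mRNAs such as Tnf and Il6 persist after a sensor has been triggered, and several of them act on their own transcripts too.

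All but Rc3h1 lie on the minus strand of GRCm38 in the GENCODE annotation: Zfp36 (ENSMUSG00000044786.6) at chr7:28376784-28380253, Zfp36l1 (ENSMUSG00000021127.7) at chr12:80107754-80113013, Zfp36l2 (ENSMUSG00000045817.8) at chr17:84183931-84187947 and Zc3h12a (ENSMUSG00000042677.7) at chr4:125118423-125127840. Rc3h1 (ENSMUSG00000040423.10) lies on the plus strand at chr1:160906418-160974978. An annotated antisense gene overlaps each of Zfp36 (Gm44710), Zfp36l1 (Gm26669) and Zfp36l2 (AC132455.1), and 3 genes on the same strand overlap Rc3h1. The libraries do not mark the strand, so reads of such pairs cannot be told apart.

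The letters TATTTAT, the core that TTP family proteins bind (written here as DNA and searched on the transcript strand only), occurred 3 times each in the 3′ UTRs of Zfp36, Zfp36l1 and Zfp36l2, 2 times in Rc3h1 and 0 times in Zc3h12a. Of 10861 tested genes with an annotated 3′ UTR, 29.8% held at least 1. The 3′ UTR of Zfp36 is 774 bases long, and 0.879% of the 1251 tested genes with a 3′ UTR within 20% of that length held as many. For Zfp36l1 (1835 bases) and Zfp36l2 (1822 bases) these shares were 3.49% and 3.43%, and for Rc3h1 (7181 bases) 43.7%. One 29-base stretch of each 3′ UTR that holds the letters is shown 5′ to 3′, with TATTTAT in capitals, since it is the family's own recognition sequence in the family's own transcripts. Those of Tnf (tumour necrosis factor), Il6 (interleukin 6) and Ptgs2 (cyclooxygenase), 3 cytokine-type targets described later, stand beside them. The stretches lie at chr7:28376951-28376979, chr12:80108167-80108195, chr17:84184914-84184942, chr1:160970043-160970071, chr17:35199678-35199706, chr5:30019728-30019756 and chr1:150105786-150105814, in the order printed, with Rc3h1, Il6 and Ptgs2 on the plus strand and the others on the minus strand.
Zfp36: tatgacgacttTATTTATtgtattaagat
Zfp36l1: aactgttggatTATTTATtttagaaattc
Zfp36l2: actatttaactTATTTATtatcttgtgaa
Rc3h1: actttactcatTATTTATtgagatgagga
Tnf: TATTTATTATTTATTTATTATTTATTTAT
Il6: tttatgattgaTATTTATtatttttatga
Ptgs2: tctactgaccaTATTTATTTATTTATgtg
The stretches of Zfp36, Zfp36l1, Rc3h1 and Il6 held 1 ATTTA pentamer each and that of Zfp36l2 held 2, while those of Ptgs2 and Tnf held 3 and 5.

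Whole-series checks bear on all that follows. Reads in genes ranged from 4740909 to 14255730 per library, and the number of genes detected from 14371 to 15417. Of the 7 dendritic cell markers listed, 6 had a mean of at least 10 normalized counts, and the exception was Flt3 (mean 9.26). Of the macrophage markers all 5 in the table passed that level, with summed counts from 7406 to 17315 over the groups. Among 5 neutrophil markers 2 passed, S100a8 (mean 90.4) and S100a9 (mean 59.0), with group sums of the list from 111 to 219. Of the 4 mast cell and basophil markers 1 passed, and none of the 4 T cell and 4 B cell markers in the table did. The summed dendritic cell markers differed between genotypes and are given beside the mock levels, and the part of all these markers in the results was not tested. Dhx58, the gene targeted in KO mice, went against the label in mock cells: its mean was 147, 451 and 722 at 1, 3 and 6 h in libraries labelled KO against 93.6, 132 and 307 in WT. With PAMP RNA it was 156, 595 and 935 in KO against 98.3, 1477 and 3005 in WT. The sources used here do not say where in the gene the deletion lies. WT and KO therefore stand for the libraries labelled so. In bulk RNA, fewer cells of a type and less RNA per cell cannot be told apart.

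The 5 mRNAs differed in abundance, which was compared per kilobase of transcript. The length used was that of the GENCODE exons inside the RefSeq gene span, which counts 1765 of the 2790 annotated bases for Zfp36, 2984 of 2990 for Zfp36l1, 11004 of 11006 for Rc3h1 and all of 3530 for Zfp36l2 and 2755 for Zc3h12a. In WT mock cells at 1 h the mean normalized count per kb was 995 ± 196 (SD, n = 3) for Zfp36l2, 890 ± 57.9 for Zfp36 and 534 ± 63.0 for Zfp36l1. Zc3h12a (170 ± 12.7) and Rc3h1 (80.7 ± 11.3) were well below them. The TTP family thus outweighed the endonuclease and Roquin-1 at the mRNA level in these cells. Whether Zfp36 reached the level of Zfp36l2 depended on the length. With the whole GENCODE transcript, an alternative chosen after seeing the data, Zfp36 stood at 563 ± 36.6 per kb, and its libraries (530 to 603) lay below every library of Zfp36l2 (791 to 1182), whereas with the shorter length they overlapped (838 to 952). With PAMP RNA at 6 h the order in WT cells was Zfp36 (1944 ± 115), Zfp36l1 (975 ± 24.1), Zfp36l2 (610 ± 55.3), Zc3h12a (174 ± 5.19) and Rc3h1 (69.2 ± 3.18), with no overlap between neighbours. With the whole transcript Zfp36 was at 1230 ± 72.8 there and still the highest, without overlap.

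**Figure D1:**
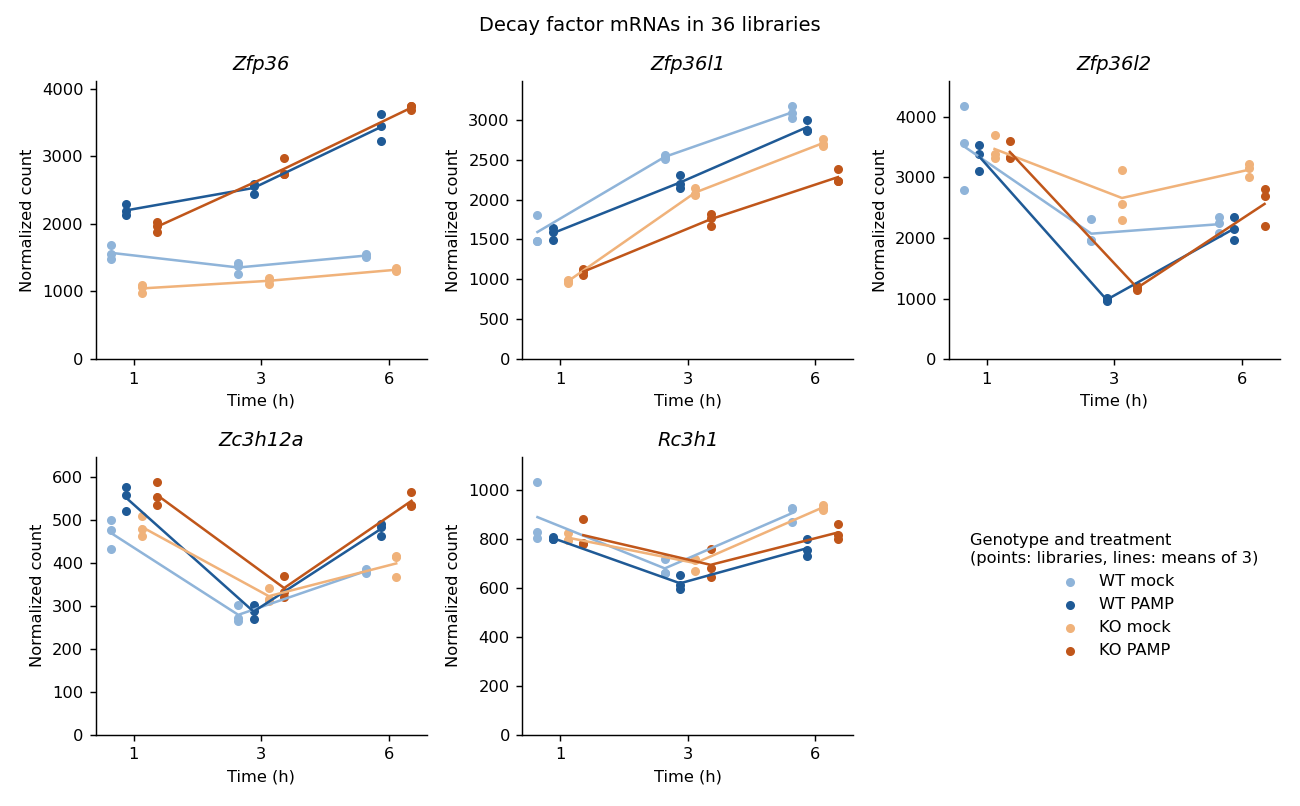
Normalized counts (vertical axes, each from 0) of the 5 mRNAs against time in h for WT and KO cells, mock or with PAMP RNA, with 1 point per library and lines through the means of 3. Zfp36 separates by treatment at every time, Zfp36l2 has its lowest points with PAMP RNA at 3 h, and Zfp36l1 climbs with time in every series.

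Zfp36, which encodes TTP itself, was the only one of the 5 whose mRNA rose with PAMP RNA at every time in both genotypes. In WT cells at 1 h the mock libraries held 1554, 1479 and 1681 normalized counts and the PAMP libraries 2288, 2125 and 2185. The 3 h mock libraries held 1428, 1373 and 1262, and their PAMP counterparts 2442, 2588 and 2561. By 6 h the counts were 1521, 1513 and 1556 against 3224, 3440 and 3630. Every WT PAMP library lay above every WT mock library, and the PAMP libraries of 6 h lay above those of 1 and 3 h. On the log2(normalized count + 1) scale, used for all changes here, the WT response was 0.49, 0.90 and 1.16 at the successive times (SE 0.05 each), an increase of 40.1%, 87.0% and 124%. The limma adjusted p-values, corrected over all tested genes, were 1.63e-09, 5.11e-20 and 1.57e-24.

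Few genes changed so early. At 1 h 0.945% of the 11853 tested genes passed in WT cells (an adjusted p under 0.05; 0.801% higher, 0.143% lower) and 1.36% in KO cells (1.19% higher, 0.169% lower). Zfp36 was the single decay factor among them in each genotype, 1 of 5. At 3 h 41.6% of genes passed in WT cells (19.6% higher, 22% lower) and 50.6% in KO cells (23.8% higher, 26.9% lower), against 3 of the 5 decay factors in either genotype, of which 1 rose and 2 fell. By 6 h the shares were 65.4% in WT cells (32.1% higher, 33.3% lower) and 71.7% in KO cells (35.1% higher, 36.5% lower). The decay factors stood at 3 of 5 in WT cells (2 rose, 1 fell) and 5 of 5 in KO cells (2 rose, 3 fell). At 3 and 6 h a count of members is thus near the background, and sizes and directions are what the values below describe.

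In KO cells Zfp36 started lower and rose further. The KO mock libraries held 1092, 980 and 1061 at 1 h, and the KO PAMP libraries 1962, 1884 and 2020. The 3 h values were 1109, 1200 and 1163 in mock cells against 2738, 2731 and 2972, and the 6 h values 1319, 1343 and 1301 against 3738, 3683 and 3735. All KO PAMP libraries lay above all KO mock libraries, as in WT cells. The KO response was 0.90, 1.28 and 1.49 (SE 0.05 each), a 1.87-fold, 2.43-fold and 2.81-fold rise with limma adjusted p-values of 8.30e-19, 4.05e-26 and 5.04e-29. Compared between genotypes, the PAMP libraries of KO cells lay below those of WT cells at 1 h and above them at 3 and 6 h, without overlap at any of the times.

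The scaling of the libraries matters for the size of these changes, because the deposited normalized counts summed to a mean of 7427805 in WT mock cells at 6 h and 9621719 with PAMP RNA. Scaled to equal totals, the median tested gene moved by -0.18 at 3 h and -0.37 at 6 h in WT cells, and by -0.25 and -0.48 in KO cells, relative to the deposited scale. The share of higher genes among those called then went from 47.1% to 23.0% at 3 h and from 49.0% to 20.8% at 6 h in WT cells, and from 46.95% to 20.8% and from 49.0% to 20.2% in KO cells. Zfp36 still rose in all 6 responses under equal totals, by 0.52, 0.73 and 0.79 in WT and by 0.93, 1.03 and 1.01 in KO cells. The values of the other 4 mRNAs moved down at 3 and 6 h by similar amounts, and both scales are given where a call differs.

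**Figure D2:**
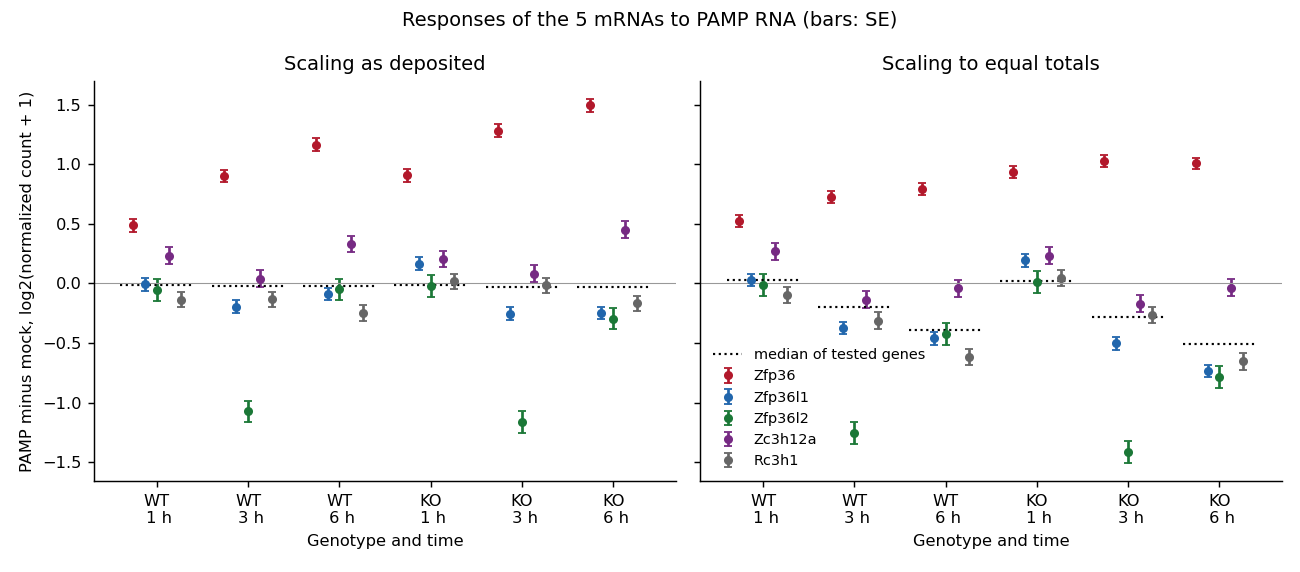
Responses to PAMP RNA (vertical axis, log2(normalized count + 1), PAMP minus mock, bars are SE) of the 5 mRNAs by genotype and time, with the deposited scaling on the left and scaling to equal totals on the right. Dotted lines mark the median of 11853 tested genes, and Zfp36 stays above 0 and Zfp36l2 at 3 h below -1 in both panels.

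Zfp36l2, a family member that also restrains the cell cycle in lymphocyte precursors, moved the other way. On the deposited scale its WT response passed at 3 h and at no other time. Over the alternatives computed the 3 h response ranged from -1.29 to -0.996 in WT and from -1.48 to -1.05 in KO cells. It passed in each of them. Its WT mock libraries at 3 h held 2305, 1964 and 1944 normalized counts and the PAMP libraries 1013, 971 and 955. In KO cells the counts were 2567, 3115 and 2299 against 1141, 1208 and 1181. No PAMP library reached a mock library in either genotype. The WT level fell by 52.5% (-1.08, SE 0.09, limma adjusted p = 4.46e-14) and the KO level fell by 55.4% (-1.17, SE 0.09, limma adjusted p = 2.08e-15).

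By 6 h most of this difference had gone. The WT mock libraries held 2345, 2252 and 2085 and the WT PAMP libraries 2144, 1962 and 2352, which overlap (-0.05, SE 0.09, limma adjusted p = 0.636). In KO cells they were 2999, 3157 and 3228 against 2807, 2190 and 2690, a response of -0.30 (SE 0.09, adjusted p = 0.00386). That KO call rested on 1 library: without KO PAMP 6 h replicate 2 (2190) the value was -0.19 with an adjusted p of 0.0839. Under equal totals both 6 h values were falls, -0.42 in WT (adjusted p = 6.75e-05) and -0.78 in KO cells (adjusted p = 2.55e-10). At 1 h the response of Zfp36l2 was -0.05 in WT and -0.02 in KO cells (adjusted p = 0.936 and 0.989), where the WT mock libraries ranged from 2793 to 4174.

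Zfp36l1, the third family member, was mainly a transcript that climbed with time in culture. Its WT mock means were 1594 ± 188 (SD, n = 3), 2536 ± 24.8 and 3095 ± 71.0 at 1, 3 and 6 h, and its KO mock means 977 ± 16.0, 2090 ± 44.7 and 2708 ± 46.4. The 3 times did not overlap in either genotype. With PAMP RNA the climb from 1 to 3 h was shallower in KO cells, while the WT difference, given below, did not pass on the deposited scale. At 1 h the response was -0.01 in WT and 0.17 in KO cells (adjusted p = 0.988 and 0.163, the latter 0.19 with adjusted p = 0.0487 under equal totals). At 3 h the WT mock libraries held 2515, 2564 and 2530 and the WT PAMP libraries 2304, 2198 and 2144 (-0.20, SE 0.05, limma adjusted p = 0.00202), without overlap.

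In KO cells at 3 h Zfp36l1 stood at 2071, 2141 and 2057 in the mock libraries and at 1669, 1824 and 1769 in the PAMP libraries (-0.25, SE 0.05, limma adjusted p = 6.40e-05). At 6 h the values in KO cells were 2671, 2692 and 2760 against 2232, 2228 and 2387 (-0.25, SE 0.05, adjusted p = 5.44e-05). Both KO comparisons were free of overlap. The WT response at 6 h was -0.09 (SE 0.05, adjusted p = 0.137). Under equal totals these falls were larger, -0.37 and -0.50 at 3 h and -0.46 and -0.73 at 6 h in WT and KO cells, and the WT change at 6 h then passed (adjusted p = 1.47e-10).

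Zc3h12a, the Regnase-1 endonuclease, passed the test only at 6 h on the deposited scale, upwards. The WT mock libraries held 386, 376 and 380 normalized counts and the WT PAMP libraries 462, 484 and 489. In KO cells they held 414, 415 and 367 against 535, 531 and 565. The groups did not overlap in either genotype. The response was 0.33 in WT (SE 0.07, 1.26-fold, limma adjusted p = 5.46e-05) and 0.45 in KO cells (SE 0.07, 1.37-fold, adjusted p = 1.70e-07).

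These 2 calls depended on the scaling, since under equal totals Zc3h12a was at -0.04 in both genotypes at 6 h (limma adjusted p = 0.597 and 0.649). At 1 h the response of Zc3h12a was 0.23 in WT and 0.21 in KO cells (SE 0.07, adjusted p = 0.115 and 0.232), with all PAMP libraries above all mock libraries. At 3 h it was 0.04 and 0.08 (adjusted p = 0.694 and 0.350), and under equal totals the KO value turned to a fall of -0.17 (adjusted p = 0.0365).

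Rc3h1, which encodes Roquin-1, was lower with PAMP RNA at 6 h. The WT mock libraries held 921, 868 and 924 and the WT PAMP libraries 755, 799 and 730 (-0.25, SE 0.07, limma adjusted p = 0.00106). The KO libraries held 926, 939 and 917 against 799, 816 and 860 (-0.17, SE 0.07, adjusted p = 0.0209). No PAMP library reached a mock library in either genotype. The KO call was lost without KO mock 6 h replicate 2 (-0.16, adjusted p = 0.0561), without KO PAMP 6 h replicate 1 (-0.15, adjusted p = 0.0765) and without KO PAMP 6 h replicate 2 (-0.16, adjusted p = 0.0521).

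At 1 and 3 h the responses of Rc3h1 lay between -0.14 and 0.02 and did not pass. Under equal totals the 6 h values were -0.62 in WT and -0.66 in KO cells, and the 3 h values, -0.31 and -0.27, passed as well (limma adjusted p = 0.000118 and 0.000556). Rc3h1 had the narrowest span of the 5, with a 1.501-fold difference between its highest and lowest group mean. The spans were 2.00-fold for Zc3h12a, 3.17-fold for Zfp36l1, 3.56-fold for Zfp36 and 3.58-fold for Zfp36l2.

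Ordered by group mean, Zfp36 ran from KO mock cells at 1 h to KO PAMP cells at 6 h, with all 6 mock groups below all 6 PAMP groups. Only 2 of its 11 neighbouring pairs of groups overlapped (KO mock 6 h with WT mock 3 h, and WT mock 6 h with WT mock 1 h). Zfp36l1 ran from KO mock cells at 1 h to WT mock cells at 6 h with 3 overlapping neighbours. For Zfp36l2 the 2 lowest groups were the PAMP groups at 3 h, and 9 of 11 neighbours overlapped, as did 7 of 11 for Zc3h12a and 9 of 11 for Rc3h1. In Zc3h12a and Rc3h1 the 4 lowest groups were all 4 groups of 3 h.

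The responses were then compared between times within a genotype, which shows whether a change grew or receded. The response of Zfp36 was larger at 3 h than at 1 h by 0.42 in WT (SE 0.07, limma adjusted p = 1.03e-05) and 0.38 in KO cells (adjusted p = 4.18e-05). From 3 to 6 h it grew by 0.26 (adjusted p = 0.00470) and 0.21 (adjusted p = 0.0184). Under equal totals the growth of Zfp36 from 1 to 3 h was 0.20 in WT (adjusted p = 0.0172) and 0.10 in KO cells (adjusted p = 0.239), and from 3 to 6 h it was 0.06 and -0.02, neither of which passed. With quantile normalization none of the 4 differences between times for Zfp36 passed, and it turned to -0.02 in WT and -0.10 in KO cells from 3 to 6 h. The rise of Zfp36 over mock cells at each time did not depend on this.

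Zfp36l2 showed the sharpest turn of the 5. Its response dropped by 1.02 in WT and 1.14 in KO cells from 1 to 3 h (SE 0.13, limma adjusted p = 8.25e-09 and 2.75e-10), and came back by 1.02 and 0.87 from 3 to 6 h (adjusted p = 1.41e-08 and 3.42e-07). Under equal totals it came back by 0.83 and 0.63. The response of Zfp36l1 was lower at 3 h than at 1 h in KO cells (-0.42, SE 0.07, adjusted p = 8.01e-06), and the WT difference was -0.19 (adjusted p = 0.0529). The WT difference passed without WT mock 1 h replicate 3 (-0.28, adjusted p = 0.000621), without WT PAMP 1 h replicate 3 (-0.23, adjusted p = 0.0252), without WT PAMP 3 h replicate 1 (-0.22, adjusted p = 0.0366) and under equal totals (-0.40). That of Zc3h12a was higher at 6 h than at 3 h by 0.29 in WT and 0.37 in KO cells (SE 0.10, adjusted p = 0.0180 and 0.00206), and under equal totals by 0.09 and 0.13 (adjusted p = 0.494 and 0.299). The WT value of Zc3h12a was lost without WT mock 3 h replicate 1 (0.23, adjusted p = 0.0733) or WT PAMP 3 h replicate 1 (0.25, adjusted p = 0.0631), and the 3 to 6 h growth of Zfp36 in KO cells without KO mock 3 h replicate 2 (0.19, adjusted p = 0.0539) or KO PAMP 3 h replicate 2 (0.19, adjusted p = 0.0512).

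Set against these counts, 29.1% of tested genes passed from 1 to 3 h in WT cells (15.9% higher, 13.2% lower), with 1 decay factor higher and 1 lower. In KO cells 38.5% passed (19.7% higher, 18.8% lower), with 1 decay factor higher and 2 lower. From 3 to 6 h 34.3% passed in WT cells (19.3% higher, 15% lower) and 40.8% in KO cells (22.8% higher, 18.1% lower), with 3 decay factors higher in each genotype. Under equal totals Zc3h12a (-0.41 in WT, -0.40 in KO cells) and, in KO cells, Rc3h1 (-0.31) passed as lower from 1 to 3 h too. From 3 to 6 h on that scale Rc3h1 passed as lower (-0.31 in WT, -0.39 in KO cells), as did Zfp36l1 in KO cells (-0.23). Zfp36l2 was then the only decay factor still higher. Of all tested genes 9.18% were higher and 31.2% lower in WT, and 10.9% and 36.4% in KO cells.

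Mock cells show how the same mRNAs moved without PAMP RNA. From 1 to 3 h Zfp36l1 rose by 59.8% in WT and 114% in KO mock cells (limma adjusted p = 5.29e-15 and 2.26e-22), while on the log2 scale Zfp36l2 fell by 0.75 and 0.39, Zc3h12a by 0.75 and 0.58 and Rc3h1 by 0.38 and 0.20. Zfp36 differed between genotypes here, with a fall of 0.21 in WT cells (adjusted p = 0.000712) and a rise of 0.15 in KO cells (adjusted p = 0.0182). The difference between those 2 values was not tested. The KO rise of Zfp36 was lost without KO mock 1 h replicate 2 (0.10, adjusted p = 0.152) or KO mock 3 h replicate 2 (0.12, adjusted p = 0.0944), and the KO fall of Rc3h1 without KO mock 3 h replicate 3 (-0.17, adjusted p = 0.0715).

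All 5 passed from 1 to 3 h in each genotype, where 43.5% of genes passed in WT (21.3% higher, 22.2% lower) and 42.9% in KO mock cells (21% higher, 21.8% lower). From 3 to 6 h 4 of 5 rose in WT cells, where 43.7% of genes passed (22% higher, 21.7% lower), and 5 of 5 in KO cells, where 43.3% passed (21.9% higher, 21.4% lower). Zc3h12a came back by 0.45 in WT and 0.30 in KO mock cells (limma adjusted p = 6.99e-07 and 0.000360) and Rc3h1 by 0.41 in both (adjusted p = 1.32e-06 and 2.14e-06). Zfp36l1 went on to rise by 0.29 and 0.37, and Zfp36 rose by 0.18 and 0.19. The WT rise of Zfp36 was lost without WT mock 3 h replicate 3 (0.13, adjusted p = 0.0719) and under equal totals (0.12, adjusted p = 0.0514). Zfp36l2 changed by 0.11 in WT (adjusted p = 0.356) and 0.24 in KO cells (adjusted p = 0.0270), and that KO call was lost without any 1 of 4 libraries (KO mock 3 h replicates 1 and 3, KO mock 6 h replicates 2 and 3), at the least 0.14 (adjusted p = 0.255), and under equal totals, quantile normalization, DESeq2 and no filter.

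The comparison of genotypes asks whether the response depends on LGP2, an RNA helicase related to RIG-I. The response of Zfp36 was larger in KO than in WT cells by 0.42, 0.38 and 0.33 at 1, 3 and 6 h (SE 0.07 each). The 95% confidence intervals ran from 0.27 to 0.57, from 0.23 to 0.53 and from 0.18 to 0.48, with limma adjusted p-values of 0.00110, 0.000879 and 0.00193. On the deposited scale it was the only one of the 5 to pass at any time. Of all tested genes 0.118% passed at 1 h, all of them higher, so Zfp36 was 1 of 14 genes. The shares were 3.14% at 3 h (2.58% higher, 0.557% lower) and 10.5% at 6 h (6.67% higher, 3.81% lower). Over the alternatives computed the difference for Zfp36 ranged from 0.37 to 0.46 at 1 h, from 0.30 to 0.43 at 3 h and from 0.22 to 0.37 at 6 h, and passed in each.

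For the other 4 mRNAs the intervals show what size of difference these libraries leave possible. Zfp36l2 had an interval from -0.23 to 0.29 at 1 h, from -0.35 to 0.17 at 3 h and from -0.50 to 0.02 at 6 h. The differences for Zfp36l1 were 0.17, -0.06 and -0.16, for Zc3h12a -0.03, 0.04 and 0.12, and for Rc3h1 0.15, 0.12 and 0.08 at 1, 3 and 6 h, with limma adjusted p-values from 0.183 to 1.00. Under equal totals the Zfp36l1 difference at 6 h was -0.27 and passed (adjusted p = 0.0105).

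**Figure D3:**
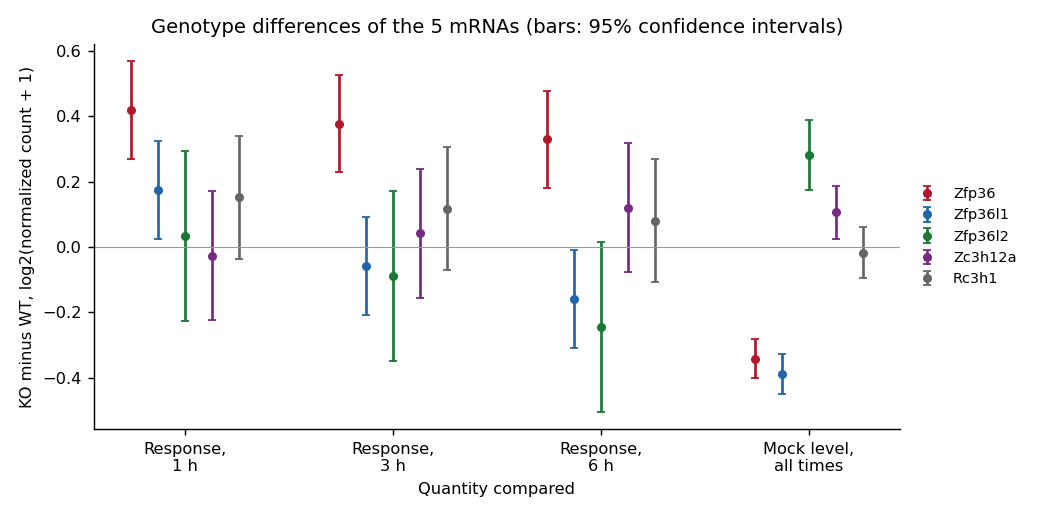
KO minus WT (vertical axis, log2(normalized count + 1)) for the response at 1, 3 and 6 h and for the mock level averaged over the times, with 95% confidence intervals as bars. Zfp36 lies above 0 in the 3 response comparisons and below 0 in mock cells, beside Zfp36l1.

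The mock levels themselves differed by genotype, with 3 of the 5 past the test (1 higher, 2 lower) where 22.2% of genes passed (10.5% higher, 11.7% lower). Averaged over the times, Zfp36 was lower in KO mock cells by 0.34 (-0.34, SE 0.03, limma adjusted p = 8.30e-13) and Zfp36l1 by 0.39 (-0.39, SE 0.03, adjusted p = 1.60e-14), while Zfp36l2 was higher by 0.28 (SE 0.05, adjusted p = 4.77e-05). For Zfp36 and Zfp36l1 every KO mock library lay below every WT mock library of the same time. For Zfp36l2 the genotypes separated at 6 h and overlapped at 1 and 3 h. Zc3h12a differed by 0.11 (SE 0.04, adjusted p = 0.0503, between 0.0218 and 0.137 over the alternatives) and Rc3h1 by -0.02 (adjusted p = 0.813). Markers of dendritic cells moved with genotype as well. Their summed counts in mock cells were 33041, 30893 and 37698 at 1, 3 and 6 h in KO against 49082, 46303 and 53850 in WT, and in PAMP cells 32743, 36018 and 48165 against 48336, 51792 and 63836, with every KO library below every WT library of the same time and treatment. Summed macrophage markers in mock cells were 7848, 9570 and 14456 in KO against 7867, 8979 and 13624 in WT. In PAMP cells they were 7785, 12510 and 17315 in KO against 7406, 10865 and 14638 in WT. At 3 and 6 h every KO library lay above every WT library of the same treatment, and at 1 h they overlapped. The part of either in the differences between genotypes was not tested. The responses compared between genotypes use these same mock libraries as their baseline, so the 2 sets of values are not independent.

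Within the TTP family, shares of the summed level per kb do not depend on how libraries are scaled against each other. Zfp36 made up 37.01% ± 3.14 (SD, n = 3), 34.8% ± 0.857 and 34.2% ± 0.564 of the family in WT mock cells at 1, 3 and 6 h. With PAMP RNA it made up 45.8% ± 1.31, 58.4% ± 1.56 and 55.1% ± 1.26. Its share in KO mock cells was 31.1% ± 1.11, 31.1% ± 1.62 and 29.5% ± 0.732, and in KO PAMP cells 45.3% ± 1.44, 63.4% ± 1.35 and 58.6% ± 1.58. At each time and in each genotype every PAMP library lay above every mock library. The size of the share depended on the transcript length. With the whole GENCODE transcript of Zfp36 it was 27.1% ± 2.68, 25.3% ± 0.712 and 24.8% ± 0.468 in WT mock and 34.8%, 47.1% and 43.7% in WT PAMP cells, whose libraries ranged from 33.8% to 36.2%, from 45.3% to 48.2% and from 42.4% to 44.9%. In KO cells it was then 22.2%, 22.3% and 20.9% (mock) and 34.4%, 52.3% and 47.3% (PAMP), again without overlap between treatments. A share of Zfp36 above that of the other 2 together from 3 h on with PAMP RNA therefore held with the shorter length, and with the whole transcript in KO cells at 3 h alone.

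Zfp36l2 took the opposite course. Its share at 3 h was 26.6% ± 1.55 (SD, n = 3) in WT mock cells and 11.3% ± 0.377 with PAMP RNA, and in KO cells 35.6% ± 3.07 and 13.3% ± 0.436. By 6 h it had come back to 17.3% ± 1.06 and 20.1% ± 1.94 with PAMP RNA, still below every mock library (23.3% to 25.9% in WT and 34.1% to 35.5% in KO cells). Zfp36l1 held 30.3% ± 1.18 in WT and 23.4% ± 0.938 in KO cells with PAMP RNA at 3 h, against 38.6% ± 1.84 and 33.3% ± 1.59 in mock cells. The family sum per kb was 2204 ± 96.2 in WT mock and 2454 ± 21.2 in WT PAMP cells at 3 h, so the change of shares at that time went with a small change of the total on the deposited scale. With the whole transcript the Zfp36l2 share at 3 h was 30.5% and 14.4% in WT and 40.2% and 17.3% in KO cells (mock and PAMP), in the same direction. With 3 libraries a group an exact permutation test of a share cannot reach a two-sided p of 0.05.

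**Figure D4:**
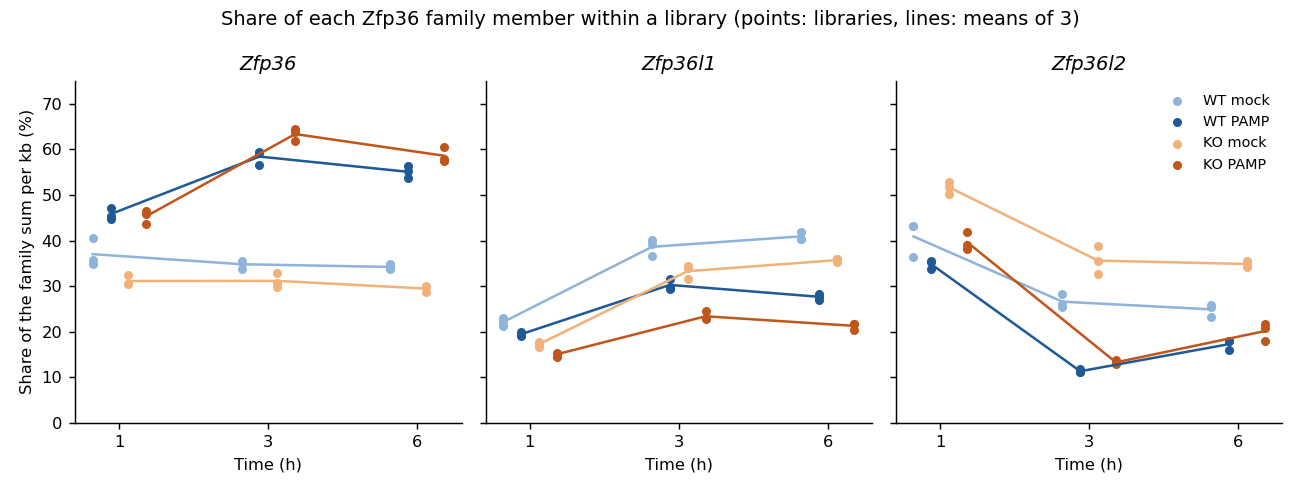
Share of Zfp36, Zfp36l1 and Zfp36l2 in the summed normalized count per kb of the 3 genes (vertical axis, %) against time in h, with 1 point per library and lines through the means of 3. The PAMP libraries of Zfp36 lie above its mock libraries at every time, and Zfp36l2 has its lowest shares with PAMP RNA at 3 h, 11.3% in WT and 13.3% in KO cells, with the shorter length of Zfp36.

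The promoter of Zfp36 is shown because its mRNA was the 1 decay factor transcript that rose at 1 h. The window of 300 bases around the RefSeq start site lies at chr7:28379179-28379478 of GRCm38.p6, on the minus strand. Both strands were searched, and capitals mark matches to the CArG box, the serum response factor motif, at position -58 from the start site, and to the GAS motif TTCNNNGAA of STAT proteins at -17.
Zfp36: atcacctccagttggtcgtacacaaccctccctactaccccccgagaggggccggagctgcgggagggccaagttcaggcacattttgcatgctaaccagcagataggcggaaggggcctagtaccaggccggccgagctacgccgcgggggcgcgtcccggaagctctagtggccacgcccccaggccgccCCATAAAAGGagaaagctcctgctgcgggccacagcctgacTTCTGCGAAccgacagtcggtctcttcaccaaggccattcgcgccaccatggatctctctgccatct
Of 32544 promoter windows of that length, 1.64% held a CArG box and 8.33% a GAS motif. The window of Zfp36 held 0 matches to the NF-kB motif, to ISRE (GAAANNGAAA), to AP-1 (TGANTCA), to CRE (TGACGTCA) and to TATAAA. The window of Zfp36l1 held 1 match to AP-1 and 1 to TATAAA, that of Rc3h1 held 1 to AP-1, and that of Zc3h12a held none of the 7 motifs. AP-1 letters occurred in 7.79% and TATAAA in 13.6% of all windows, NF-kB in 8.49%, ISRE in 3.45% and CRE in 1.80%. The CArG box and the GAS motif did not overlap. A match describes letters in this window only, and Zfp36l2 was not matched in the RefSeq table. The GENCODE span of Zfp36 begins further upstream on the minus strand, at position 28380253 of chr7, and no window at that start was searched.

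Relatives and partners of the decay factors were examined as a list of 10 genes, 8 of them tested. None passed at 1 h in either genotype. At 6 h 5 of 8 rose in WT and 6 of 8 in KO cells with none falling, at medians of 0.39 and 0.57 against -0.02 and -0.03 for all tested genes. Under equal totals 3 rose and 3 fell in WT cells and 4 rose and 4 fell in KO cells, so the direction of the list as a whole depended on the scaling. Over all tested genes equal totals gave 16.4% higher and 62.4% lower in WT and 16.9% and 66.5% in KO cells at 6 h. The counts called, 5 and 6 of 8, are near the 65.4% and 71.7% of all genes called at that time.

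Arid5a, an RNA-binding protein that shields Il6 mRNA from Regnase-1, had the largest change of that list at 6 h. Its mean rose at 6 h from 150 ± 19.1 (SD, n = 3) to 914 ± 36.5 in WT cells (2.61, SE 0.09, limma adjusted p = 2.45e-29) and from 122 to 1271 ± 34.6 in KO cells (3.37, SE 0.09, adjusted p = 4.69e-34). For Arid5a the KO response exceeded the WT response by 0.64 (3 h) and 0.76 (6 h) (adjusted p = 0.000861 and 2.96e-05). Malt1, the protease that cleaves Regnase-1 and Roquin-1, rose by 0.86 and 1.02 at 6 h. Zc3h12c, a relative of Regnase-1, rose by 0.53 and 0.94, and N4bp1, another endonuclease-type regulator, by 0.52 and 0.81. Under equal totals Arid5a rose by 2.23 and 2.88, Malt1 by 0.49 and 0.54 and N4bp1 by 0.14 and 0.32, and Zc3h12c by 0.45 in KO cells with a WT value of 0.15 (adjusted p = 0.0562).

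Kinases and phosphatases that act on TTP formed a list of 14 with 13 tested. Only Dusp1, the phosphatase that switches off p38, passed at 1 h, at 0.83 in WT cells (SE 0.08, limma adjusted p = 4.37e-10), and its KO response was 0.86. At 6 h 6 rose and 2 fell in each genotype, again a number near the share of all genes called. Mapkapk2, the kinase MK2 that phosphorylates TTP, rose by 0.77 in WT and 0.92 in KO cells, while Mapk14, p38 alpha upstream of it, fell by 0.74 and 0.87. Ppp2ca, the catalytic subunit of the phosphatase that acts on the same sites, rose by 0.64 and 0.70. Under equal totals these 4 genes kept their directions at 6 h, when 7 of the 13 fell in WT and 8 in KO cells, no more than the 62.4% and 66.5% of all genes.

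On the deposited scale the machinery that the decay factors recruit was called no more often than genes in general at 6 h. Of all tested genes 65.4% passed at that time in WT and 71.7% in KO cells. Of 19 tested CCR4-NOT and poly(A) shortening genes 6 rose and 4 fell in WT and 6 rose and 5 fell in KO cells at 6 h (medians 0.01 and -0.04), led by Tnks1bp1, a CCR4-NOT partner, at 1.00 and 1.15. Of 28 decapping, 5′ decay and exosome genes 6 rose and 2 fell in WT and 8 rose and 10 fell in KO cells. Dcp2, the decapping enzyme, rose by 1.37 and 1.58 and Xrn1, the 5′ exonuclease, by 1.24 and 1.67. Other proteins that bind AU-rich or related elements split 7 to 7 in WT cells at 6 h on the deposited scale. Each one tested thus passed there, against 65.4% of all genes. In KO cells each passed but Tia1 and Ybx1 (limma adjusted p = 0.117 and 0.0619), against 71.7% of all genes. Among them were Cpeb4, a translation regulator, at 0.88 and Tial1, a stress granule protein, at -0.53 in WT cells. With equal totals Cpeb4 (0.51) and Tial1 (-0.90) kept their directions in WT cells. In the same list Igf2bp2 in WT cells (0.35, limma adjusted p = 0.104) and Hnrnpab in KO cells (0.095, limma adjusted p = 0.133) then no longer passed. The counts of this list thus depended on the scaling. Under equal totals 15 and 16 of the 19 and 21 and 21 of the 28 fell at 6 h in WT and KO cells. On that scale 62.4% and 66.5% of all tested genes fell, a smaller share than of the 19 or of the 28. Dcp2 (1.00 in WT), Xrn1 (0.87 and 1.19) and Tnks1bp1 (0.62 and 0.66) still rose.

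Most mRNAs listed as targets of the TTP family rose in the same comparisons as Zfp36. Of 31 listed, 28 were tested, and 16, 23 and 25 of them rose in WT cells at the successive times, with 0, 3 and 1 falling. The medians were 0.44, 1.23 and 1.43, against -0.01, -0.03 and -0.02 over all tested genes. In KO cells 19, 22 and 25 rose and 0, 3 and 3 fell, at medians of 0.88, 1.39 and 1.71. The list was chosen with earlier results of these data known, so these counts are not an independent test. TATTTAT was held by 23 of the 28 (82.1%), against the 29.8% of all tested genes given above. It is the core that the family binds, so a list of its targets is not independent of these letters. Under equal totals 22 rose in WT and 23 in KO cells at 6 h, at medians of 1.06 and 1.23. The response was larger in KO than in WT cells for 5, 5 and 10 of the 28 at 1, 3 and 6 h and smaller for 0, 0 and 1 (5, 4 and 7 larger and 0, 0 and 3 smaller under equal totals). Of all tested genes 0.118%, 2.58% and 6.67% had a larger response in KO cells at these times, and 0%, 0.557% and 3.81% a smaller one.

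Tnf is the classical TTP target. Its mean normalized count was 502 ± 73.0 (SD, n = 3) in WT mock and 1544 ± 44.4 in WT PAMP cells at 1 h, and 599 ± 69.5 and 4001 ± 122 at 6 h. The KO means were 406 ± 17.4 (mock) and 2204 ± 54.8 (PAMP) at 1 h, then 582 ± 20.1 and 5889 ± 228 at 6 h. The KO response of Tnf exceeded the WT response by 0.81 (SE 0.11), 0.36 and 0.59 at the successive times, with limma adjusted p-values of 9.20e-06, 0.0593 and 0.000153. The responses of Tnf and Zfp36 mRNA were thus both larger in KO cells at 1 and 6 h. Averaged over the times Tnf differed by -0.02 in mock cells (adjusted p = 0.763), an average of unlike values, since the KO mean was below the WT mean at 1 h (given above) and above it at 3 h, 549 ± 66.6 against 457 ± 21.5.

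Other targets followed at different sizes. Ccl4, a chemokine, rose by 4.46 in WT and 4.66 in KO cells at 6 h, Ccnd1, cyclin D1, by 4.14 and 4.59, and Il6 by 3.89 and 4.78. Ptgs2 rose by 3.49 and 4.97, from 32.6 to 369 normalized counts in WT and from 21.0 to 679 in KO cells. The list of Regnase-1 and Roquin targets shares Il6, Tnf, Ptgs2 and others with the first. It also holds Zc3h12a, which was left out of the counts. Like the first, it was chosen with earlier results of these data known, so its counts are not an independent test. Of the 18 other genes tested, 8, 13 and 13 rose in WT and 9, 13 and 15 in KO cells at 1, 3 and 6 h. Of all tested genes 0.801%, 19.6% and 32.1% rose in WT and 1.19%, 23.8% and 35.1% in KO cells. Some listed genes fell, such as Cxcl3 at 6 h (-0.88 in WT and -1.13 in KO cells). Il12b, the interleukin 12 p40 subunit, rose by 2.14 and 2.60 at 6 h. In mock cells 14 of the 28 TTP targets and 10 of the 18 Regnase-1 and Roquin targets were lower in KO, where 11.7% of all tested genes were lower, against 2 and 0 that were higher, where 10.5% were. The medians were -0.15 and -0.36.

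**Figure D5:**
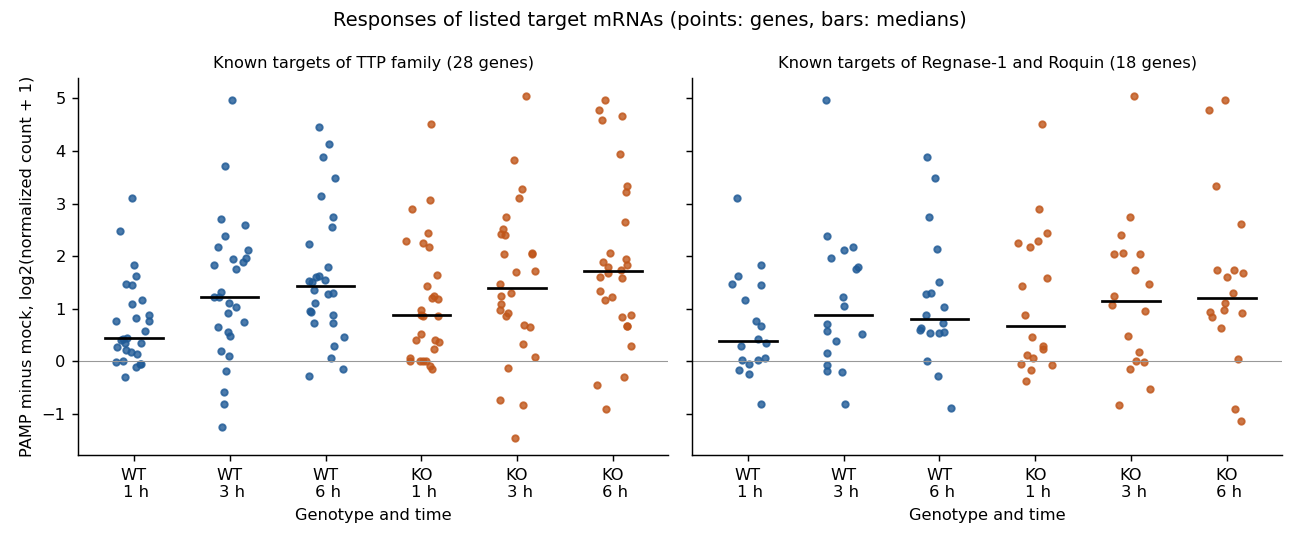
Responses to PAMP RNA (vertical axis, log2(normalized count + 1), PAMP minus mock) of the listed targets of the TTP family (28 genes) and of Regnase-1 and Roquin (18 genes) by genotype and time, with 1 point per gene and bars at the medians. The median of the TTP targets goes from 0.44 at 1 h to 1.43 at 6 h in WT and from 0.88 to 1.71 in KO cells.

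Among 9788 genes with a mean of at least 50, the group means most like those of Zfp36 over the 12 groups were those of Rgs1, a regulator of G protein signalling (Pearson r = 0.978 on the log2 scale), and Csrnp1, a nuclear protein of early responses (0.972). For Zfp36l1 they were those of St8sia4 (0.979) and Pde4b (0.979), for Zfp36l2 Tor1a (0.970) and Akap10 (0.970), for Zc3h12a Ptpn23 (0.963) and Clk3 (0.962), and for Rc3h1 Wasf2 (0.979) and Braf (0.960). These values describe 12 means that share libraries and scaling, and the third nearest genes were A630072M18Rik, Myo9a, Yod1, Stk35 and Kmt2b in the same order of decay factors. No decay factor was among the 3 nearest genes of another.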

How the data were processed

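RNA-seq of mouse dendritic cells covered 36 libraries in 12 groups of 3, made per the labels' protocols with the SMARTer HV and Nextera XT kits, which mark no strand. The labels call them biological triplicates without saying whether each came from its own mouse, so a p-value reflects only how far these libraries scatter, which may be technical. The authors deposited 1 table of normalized gene counts, used here as a signal with no log scale. The submitters' processing notes name TopHat, Cufflinks, DESeq2 and GRCm38/mm10, without versions or roles, and no annotation is named in the sources used here. Whole reads were recovered for 100% of values (tolerance 0.01 reads), which gave the reads per library.

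Genes with a mean of at least 10 were fitted with limma 3.58.1 (R 4.3.3) on log2(normalized count + 1) with 12 group means, 24 residual degrees of freedom and an intensity trend. The pseudocount of 1 understates changes of low genes. P-values were adjusted by Benjamini-Hochberg over 11853 genes within each of 18 comparisons, and an adjusted p under 0.05 was called. The test was tried on simulated data in which all libraries took the means of WT mock cells at 6 h and few genes were changed. Far more genes passed in the real responses at 6 h, so the rates there can differ. In the simulated WT response at 6 h it called 52%, 74%, 96% and 100% of genes changed 1.25, 1.5, 2 and 4-fold, and in the simulated difference between genotypes at 6 h 20%, 56%, 90% and 94%.

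The members and lists were chosen with earlier results of these data known. Named genes were the 5 members, up to 4 genes per list with the largest change at 6 h among those called in both genotypes with a mean of at least 50, and the 3 genes most correlated with each member over 12 group means. Alternatives tried were pseudocounts of 0.5 and 5, no filter, quantile normalization, equal totals, edgeR 4.0.16 (7640 genes called in the WT response at 6 h, against 7754 with limma) and DESeq2 1.42.0 on recovered reads, only the groups compared, a replicate block, and leaving out each library. Levels per kb used the length of GENCODE exons on GRCm38 inside the RefSeq gene span, which shortens Zfp36 from 2790 to 1765 bases. The whole GENCODE length was an alternative chosen after seeing the data. The promoter windows came from RefSeq.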

Additional observations from a re-analysis of the deposited data

Results flagged for a closer look

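The response to PAMP RNA differed between genotypes for Zfp36 by a test of the difference itself, with KO above WT by 0.42 at 1 h, 0.38 at 3 h and 0.33 at 6 h (log2 scale). The limma test, adjusted over 11853 genes, passed in each of these 3 comparisons.

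Responses also differed between times within a genotype. From 1 to 3 h the WT response changed by 0.42 for Zfp36 and by -1.02 for Zfp36l2, and the KO response by 0.38 for Zfp36, -0.42 for Zfp36l1 and -1.14 for Zfp36l2. From 3 to 6 h the WT response changed by 0.26 for Zfp36, 1.02 for Zfp36l2 and 0.29 for Zc3h12a, and the KO response by 0.21 for Zfp36, 0.87 for Zfp36l2 and 0.37 for Zc3h12a. The differences between times for Zfp36l2 kept their direction and passed under equal totals and quantile normalization.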

How the results depend on the processing

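The limits are 3 libraries a group, a scaling that the deposited table fixes, and reads that cannot be assigned to a strand. A change counted as kept if its call stayed and its direction did not turn while it passed under the main settings or the alternative. Turns of changes that passed under neither were not counted. Of 90 changes of the decay factors, 90 were kept with a pseudocount of 5, 89 with 0.5, 89 without the filter and 89 with only the groups compared. DESeq2 kept 89, edgeR 88, quantile normalization 75 and equal totals 66. Leaving out 1 library kept 785 of 810. The replicate numbers did not pair the libraries (0 of 18 matched pairs correlated over 0.1, and 12 of 36 libraries lay nearest to their own number), and the replicate block kept 90 of 90 calls. Whole GENCODE transcript lengths moved the family shares of Zfp36, Zfp36l1 and Zfp36l2 in each of the 12 groups (Zfp36 in WT PAMP cells at 6 h from 55.1% to 43.7%), an alternative chosen after seeing the data.

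Only the larger relative changes in the number of decay factors called are listed here. Smaller ones occurred under equal totals, where Rc3h1 also passed in the WT response at 3 h. In the WT response at 6 h Zfp36l1 and Zfp36l2 then passed and Zc3h12a did not. The number of decay factors called moved from 3 to 5 in the WT response at 6 h with quantile normalization. Under equal totals it moved from 1 to 2 in the KO response at 1 h, from 3 to 5 in the KO response at 3 h, from 1 to 2 in the genotype difference at 6 h and from 2 to 4 in the WT response from 1 to 3 h. In the KO response at 6 h it ranged from 3 (without KO PAMP 6 h replicate 2) to 5 when 1 library was left out. Turned directions are given here only for changes that passed under the main settings or the alternative. The direction turned under equal totals for Zc3h12a in the WT response at 6 h (-0.043) and the KO response at 3 h (-0.17) and 6 h (-0.036). From 3 to 6 h it turned for the Zfp36 response with quantile normalization in WT (-0.024) and KO cells (-0.10) and under equal totals in KO cells (-0.024), and for the Zfp36l1 response in KO cells with both (-0.20 and -0.23). From 1 to 3 h the KO response of Zfp36 was at -0.0040 with quantile normalization. The construction of equal totals moves all genes of a library together; other causes were not tested.

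Over all genes, the count called went from 372 to 242 for the genotype difference at 3 h with quantile normalization, from 14 to 9 at 1 h with edgeR, from 112 to 69 for the WT response at 1 h with only the groups compared, and under equal totals from 3448 to 5492 and from 4559 to 6941 for the 1 to 3 h difference in WT and KO responses.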
